A study of Homo sapiens with 31 samples.

Results

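Collagen chain genes encode the polypeptides that assemble in threes into the collagens of the extracellular matrix. They were taken from the deposited array table as every gene with a symbol of the form COL, number, A, number that a probe set carried as its single symbol. Where a gene had several such probe sets the brightest on average would have been used, but every member had 1. This gave 42 of the 17314 named genes. The samples were tumours grown from the human prostate carcinoma line PC3, a p53-null line from a bone metastasis that has lost most luminal prostate features, as xenografts in a host animal, taken here to be the mouse. Tumours came from unpassaged PC3 (wt, sensitive to cyclophosphamide) and from 3 lines re-isolated from passaged tumours: A3, which is sensitive, and D3 and D4, which are resistant. When the tumours had a mean volume of 30 mm3 the host was either left untreated or given the alkylating prodrug cyclophosphamide (CPA) intraperitoneally at 120 mg/kg. This made 8 groups of line and treatment with 4 arrays each, except untreated A3 with 3, since the submitters had left out 1 array of that group as an outlier. A3, D3 and D4 are 1 clone each, so a difference of a clone from wt belongs to that clone and need not belong to passage or to resistance as such. The question here was whether the chains of each collagen class differed between the lines and with CPA.

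Collagens are classed by how their triple helices assemble. Fibrillar collagens such as types I, III and V form the striated fibres of connective tissue, type IV forms the sheet of the basement membrane, and type VI forms beaded filaments around cells. FACIT collagens (fibril-associated collagens with interrupted triple helices) such as types XII and XXI decorate fibres, type VII anchors epithelium to its underlying stroma, and the transmembrane collagens and the multiplexins XV and XVIII sit at the cell surface and in basement membranes. In tumours most fibrillar collagen is made by fibroblasts of the host, while carcinoma cells can make collagens of their own. Mouse and human collagen mRNAs are alike in sequence, so a human array can in principle bind mouse RNA from the stroma. In such bulk samples fewer cells of a type and less RNA per cell cannot be told apart.

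The 42 genes fell into 10 fibrillar chains, 6 of collagen IV, 3 of the other network collagens VIII and X, 5 of collagen VI, 10 FACIT chains, 1 anchoring fibril chain, 3 transmembrane chains, 2 multiplexins and 2 others. Levels are log2 RMA values, in which a step of 1 is a doubling, and probe sets differ in brightness, so levels are compared only within a gene. Of the members, 15 had a mean level among the dimmest 30% of all genes, under 6.01 (COL21A1 among those described at length), where an array may read mostly background. Deposited array medians lay between 6.59 and 6.73, and arrays of the same group correlated at 0.985 to 0.997 over all genes. The tumour cell markers KRT8, KRT18, CD44 and VIM stood at mean levels of 9.92, 10.00, 10.52 and 11.23. The prostate secretory genes KLK3 and KLK2 were among the dimmest 30%, while the third luminal marker, ACP3, was not (mean level 6.31).

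Among the 8 groups, limma's F-test found a difference at an adjusted p under 0.05 (a gene past this threshold is said to be called) in 13 of the 42 collagen genes, or 31%. Of all genes 35.4% were called, a larger share. The 13 genes were COL1A1, COL3A1, COL5A1, COL5A2 and COL27A1 of the fibrillar class, COL4A1, COL4A2, COL4A5 and COL4A6 of collagen IV, COL6A2 and COL6A3 of collagen VI, and the FACIT chains COL12A1 and COL21A1. No chain of the other network, anchoring fibril, transmembrane, multiplexin or remaining classes was called. The lowest and the highest group mean lay farthest apart in COL12A1, by 1.47, against a mean SD within groups of 0.15; its adjusted p in limma's F-test was 2.2e-11.

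In untreated tumours the clones differed from wt in both directions. Between A3 and wt 10 collagen genes were called (all genes, 18.5%), 5 of them higher in A3 (all genes, 10.1%) and 5 lower (8.36%). Between D3 and wt 11 were called (all genes, 18.1%), 5 higher in D3 (9.69%) and 6 lower (8.4%). Between D4 and wt 9 were called (all genes, 20.1%), 4 higher in D4 (9.22%) and 5 lower (10.9%). The shares of collagen genes, 23.8%, 26.2% and 21.4%, lay near those of all genes. Their median log2 differences were 0.06 in A3, 0.03 in D3 and 0.10 in D4, beside 0.04, 0.02 and 0.05 over all genes. All 3 comparisons use the same wt arrays, so that they are not independent of each other. What the collagen genes showed was therefore in single chains: COL12A1, COL4A1, COL4A2 and COL6A3 stood higher in clones and COL3A1, COL5A1, COL5A2, COL4A5 and COL21A1 lower.

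**Figure D1:**
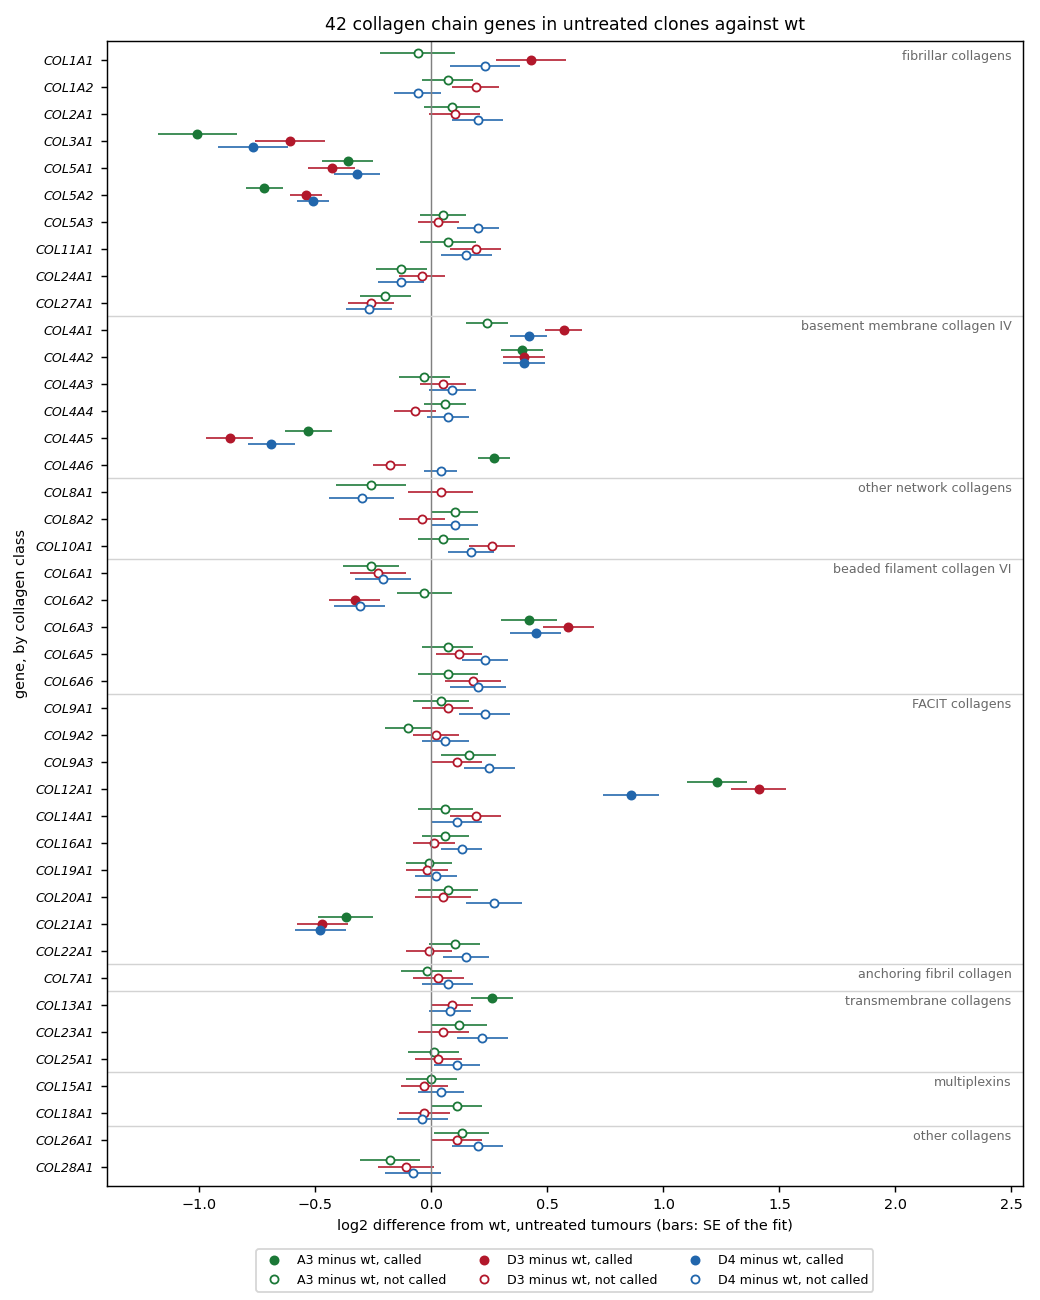
Log2 difference of each clone from wt in untreated tumours (x axis) for the 42 collagen chain genes (y axis, by class), with bars for the standard error of the limma fit; filled points passed an adjusted p under 0.05. COL12A1 lies farthest to the right in each clone (0.86 to 1.41) and COL3A1, COL5A2 and COL4A5 farthest to the left.

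Of the 10 fibrillar chains 5 were called by the F-test. COL3A1 encodes the single chain of collagen III, which forms fine fibres in skin, vessels and tumour stroma. On the untreated arrays its log2 level was 8.43, 8.21, 8.57 and 8.24 (wt), 7.2, 7.6 and 7.25 (A3), 7.74, 7.66, 7.87 and 7.74 (D3) and 7.37, 7.49, 7.62 and 7.9 (D4). With CPA its values were 7.83, 8.01, 8.49 and 8.73 (wt), 7.55, 7.07, 7.43 and 7.3 (A3), 7.86, 7.61, 7.76 and 7.66 (D3) and 7.61, 7.58, 7.36 and 8.02 (D4). Each untreated wt array was higher than each untreated array of the clones, and A3 had the lowest values. In untreated tumours the log2 difference from wt was -1.01 ± 0.17 in A3 (adjusted p = 4.4e-05), -0.61 ± 0.15 in D3 (adjusted p = 0.00456) and -0.77 ± 0.15 in D4 (adjusted p = 4.5e-04), so that the A3 level was 2.02-fold lower. In CPA-treated tumours it was -0.93 ± 0.15 in A3 (adjusted p = 5.6e-05), -0.54 ± 0.15 in D3 (adjusted p = 0.0144) and -0.62 ± 0.15 in D4 (adjusted p = 0.00458). There the wt arrays spread from 7.83 to 8.73, and D3 and D4 overlapped with them; the D3 difference lost its call without wt replicate 3 (-0.47, adjusted p = 0.0678) or wt replicate 5 (-0.39, adjusted p = 0.0779).

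COL5A2 encodes the alpha 2 chain of collagen V, which is built into collagen I fibres and limits their width, and it is the neighbour of COL3A1 in the genome. Its untreated log2 levels were 10.45, 10.55, 10.34 and 10.54 (wt), 9.81, 9.61 and 9.82 (A3), 9.93, 9.96, 9.92 and 9.91 (D3) and 9.9, 10.0, 9.92 and 10.02 (D4). With CPA the arrays read 10.33, 10.52, 10.46 and 10.48 (wt), 9.76, 9.68, 9.73 and 9.96 (A3), 9.88, 9.93, 9.84 and 9.96 (D3) and 10.14, 10.04, 9.97 and 10.01 (D4). No array of a clone reached the level of any wt array, without or with CPA. Against wt the untreated log2 difference was -0.72 ± 0.08 in A3 (adjusted p = 7.9e-08), -0.54 ± 0.07 in D3 (adjusted p = 1.9e-06) and -0.51 ± 0.07 in D4 (adjusted p = 3.5e-06). Under CPA it came to -0.67 ± 0.07 in A3 (adjusted p = 7.3e-08), -0.54 ± 0.07 in D3 (adjusted p = 2.6e-06) and -0.41 ± 0.07 in D4 (adjusted p = 1.0e-04). In addition, COL5A2 was higher in D4 than in A3 after CPA by 0.26 ± 0.07 (adjusted p = 0.0149), a call that was lost without A3 replicate 2 (0.22, adjusted p = 0.0566) or D4 replicate 1 (0.23, adjusted p = 0.0667).

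COL5A1, the other main chain of collagen V, followed at a smaller size. Untreated arrays read 8.34, 7.94, 8.09 and 7.97 (wt), 7.59, 7.87 and 7.71 (A3), 7.82, 7.58, 7.73 and 7.51 (D3) and 7.84, 7.68, 7.95 and 7.59 (D4). CPA-treated arrays held 7.93, 7.91, 8.21 and 7.98 (wt), 7.94, 7.57, 7.91 and 7.71 (A3), 7.81, 7.62, 7.77 and 7.67 (D3) and 7.69, 7.59, 7.68 and 7.39 (D4). All untreated clone arrays but 1 of D4 (7.95) were below the lowest wt array (7.94). The untreated log2 difference from wt was -0.36 ± 0.11 in A3 (adjusted p = 0.0205), -0.43 ± 0.10 in D3 (adjusted p = 0.00359) and -0.32 ± 0.10 in D4 (adjusted p = 0.0284). In treated tumours it was -0.22 ± 0.10 in A3 (adjusted p = 0.146), -0.29 ± 0.10 in D3 (adjusted p = 0.0526) and -0.42 ± 0.10 in D4 (adjusted p = 0.00461), of which D4 alone was called. The untreated A3 call was lost without wt replicate 1 (-0.28), A3 replicate 1 (-0.30) or A3 replicate 4 (-0.36), at adjusted p from 0.062 to 0.114. The untreated D4 call was lost without any 1 of wt replicates 1 and 3 and D4 replicates 2 and 5 (-0.32 to -0.23, adjusted p from 0.0543 to 0.125), and with the replicate number as a block (-0.27, adjusted p = 0.058). The remaining collagen V chain, COL5A3, was called in no comparison.

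COL1A1 encodes the alpha 1 chain of collagen I, the main fibre of bone, tendon and scar. Its untreated levels were 9.89, 9.77, 9.6 and 10.04 (wt), 9.51, 10.16 and 9.62 (A3), 10.3, 10.19, 10.28 and 10.28 (D3) and 9.79, 10.07, 10.11 and 10.24 (D4). The CPA-treated values were 9.91, 9.54, 9.32 and 9.88 (wt), 9.81, 9.26, 9.78 and 9.63 (A3), 10.22, 10.01, 10.34 and 10.11 (D3) and 10.02, 10.06, 9.73 and 10.41 (D4). The D3 arrays, at 10.01 or more, were close together, while other groups spread more widely, as CPA-treated D4 from 9.73 to 10.41. D3 was higher than wt by 0.43 ± 0.15 untreated (adjusted p = 0.0393) and by 0.51 ± 0.15 with CPA (adjusted p = 0.0179). It was also higher than A3 with CPA, by 0.55 ± 0.15 (adjusted p = 0.0263). These calls were near the threshold. The untreated call was lost without any 1 of wt replicates 1 to 3 or any D3 array (0.36 to 0.46, adjusted p from 0.0558 to 0.142), and fitted with the replicate number as a block the difference was 0.39 (adjusted p = 0.0752). The treated call against wt was lost without wt replicate 2 (0.47), wt replicate 3 (0.39) or D3 replicate 4 (0.45), at adjusted p from 0.0579 to 0.0996, and that against A3 without any 1 of A3 replicates 2 and 4 and D3 replicates 2, 4 and 5 (0.43 to 0.57, adjusted p from 0.0515 to 0.122) or with the block (0.51, adjusted p = 0.0536). Neither A3 nor D4 was called against wt: the untreated difference was -0.06 ± 0.16 in A3 (95% interval -0.39 to 0.26) and 0.23 ± 0.15 in D4 (95% interval -0.08 to 0.53). COL1A2, whose chain joins that of COL1A1 in collagen I, was called nowhere; its untreated difference in D3 was 0.19 ± 0.10 (95% interval -0.01 to 0.39).

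Of the remaining fibrillar chains, COL27A1, which encodes a long chain of developing cartilage, was called by the F-test (adjusted p = 0.0134). It was lower after CPA in D4 than in wt (-0.37 ± 0.10, adjusted p = 0.011; without D4 replicate 5, -0.31 and 0.0578). COL2A1 and COL11A1 of cartilage and COL24A1 were called in no comparison.

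**Figure D2:**
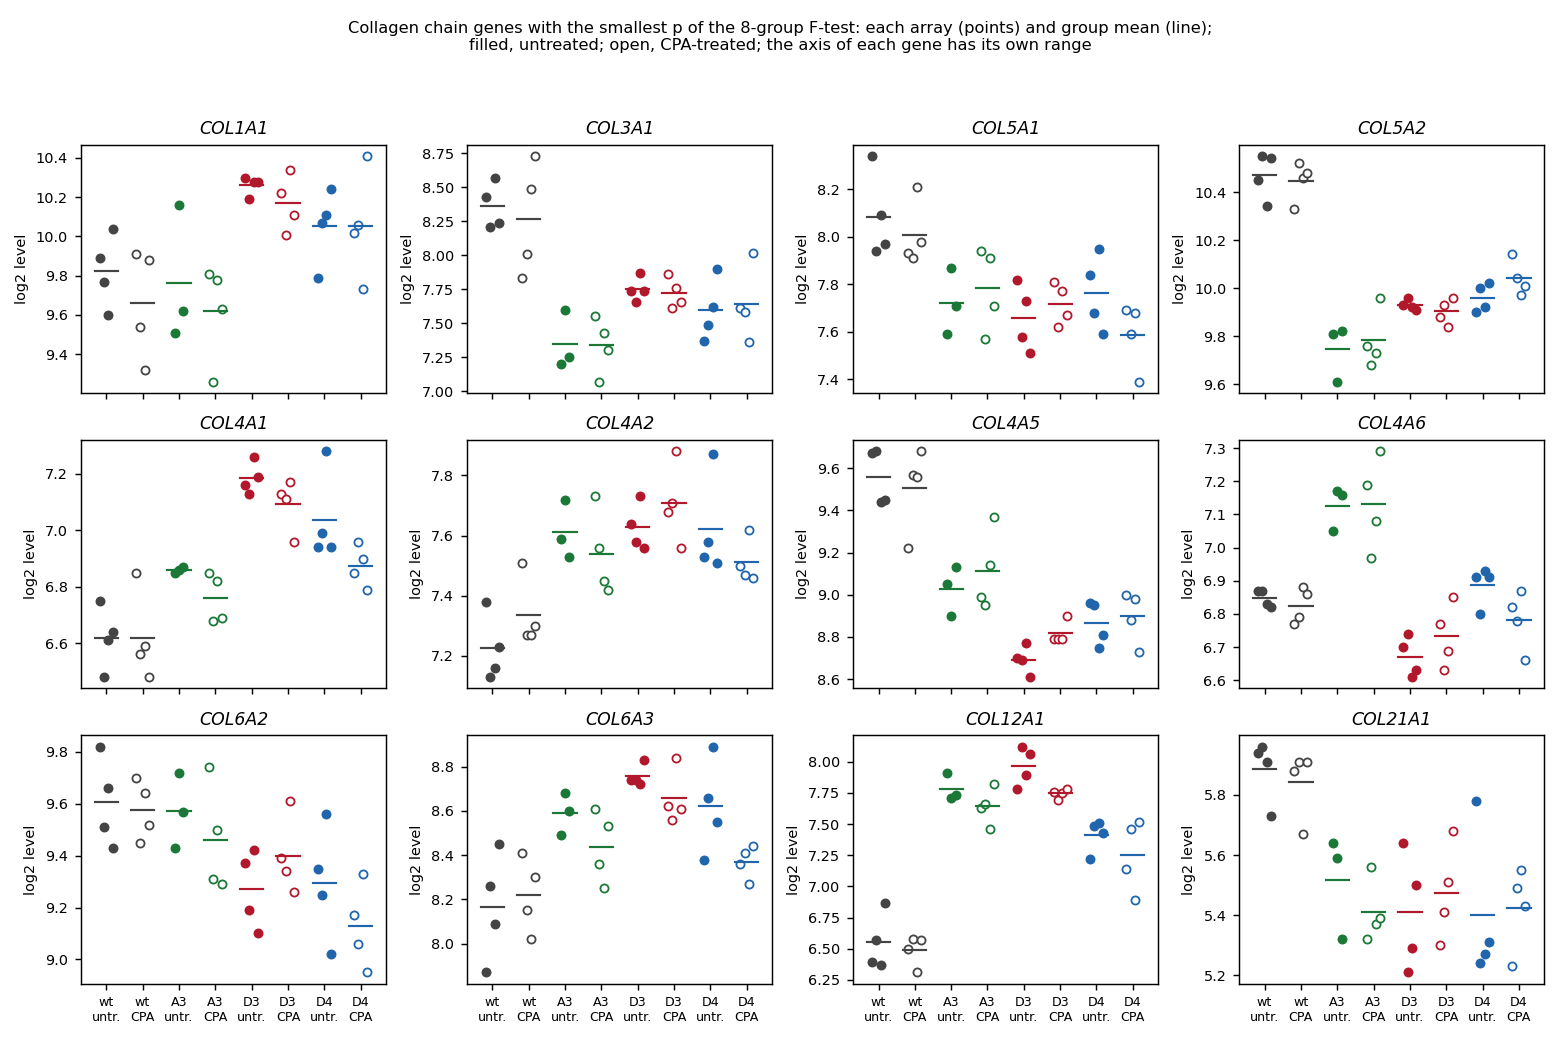
Log2 level (y axis, with its own range in each panel) on each array of the 8 groups of line and treatment (x axis) for the 12 collagen genes with the smallest F-test p; filled points are untreated and open points CPA-treated tumours, and lines are group means. COL5A2 and COL4A5 are high in wt, COL12A1 is low in wt, and COL4A6 is high in A3, without and with CPA.

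Collagen IV is built from 6 chains encoded in 3 head-to-head pairs of genes, each pair read outwards from a common promoter: COL4A1 with COL4A2, COL4A3 with COL4A4, and COL4A5 with COL4A6. The first pair makes the common basement membrane network and the others make networks of specialised membranes such as those of kidney and smooth muscle. In untreated D3 and D4 both genes of the first pair were called higher than in wt, while the genes of the last pair differed in where wt stood among the lines. Sequences between or before the starts of the first and the last pair are shown for this reason. They are from RefSeq's promoter table for GRCh38.p14, 5′ to 3′ on the strand given, and capitals mark matches, on either strand, to the TATA box (the letters TATAAA), the GC box (the letters GGGCGG) or the CCAAT box (the letters of its name).
COL4A1-COL4A2 (chr13:110307158-110307283, plus strand, all 126 bases between the starts): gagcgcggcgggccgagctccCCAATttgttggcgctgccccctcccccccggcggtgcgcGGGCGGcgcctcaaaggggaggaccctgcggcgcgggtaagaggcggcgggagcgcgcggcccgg
COL4A5 (chrX:108439588-108439837, plus strand, 250 bases before the start): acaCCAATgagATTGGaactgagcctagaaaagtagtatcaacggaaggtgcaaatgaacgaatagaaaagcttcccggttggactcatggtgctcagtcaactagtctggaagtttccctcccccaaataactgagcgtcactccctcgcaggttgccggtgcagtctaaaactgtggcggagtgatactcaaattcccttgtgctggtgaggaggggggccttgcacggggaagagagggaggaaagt
COL4A6 (chrX:108439459-108439708, minus strand, 250 bases before the start): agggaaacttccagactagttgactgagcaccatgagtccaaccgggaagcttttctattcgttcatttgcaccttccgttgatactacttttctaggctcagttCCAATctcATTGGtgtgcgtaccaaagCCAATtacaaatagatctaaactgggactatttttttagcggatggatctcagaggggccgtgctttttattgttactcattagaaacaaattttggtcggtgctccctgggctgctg
Between COL4A1 and COL4A2 there were 1 GC box and 1 CCAAT box, both as written on the plus strand. The starts of COL4A5 and COL4A6 lay 379 bases apart, and the printed windows overlap, so that the inverted pair of CCAAT boxes in each is the same stretch read from opposite strands. COL4A6 had 1 further CCAAT box. No match shown overlapped another. Promoters were found for 30 of the 42 members. In the 250 bases before the start, a CCAAT box stood in 8 of them (26.7%) and in 32.0% of all 35116 promoters, a GC box in 18 (60.0%) and in 42.6%, and a TATA box in 4 (13.3%) and in 10.7%. Each member counted with 1 promoter, while all 35116 entries were counted without such a limit. Where windows of head-to-head members overlap, a match in the shared stretch counted for both genes. Such a match is a stretch of letters and was not tested as a binding site.

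In untreated tumours COL4A1 and COL4A2 were both called higher in D3 and D4 than in wt. The untreated levels of COL4A1 were 6.75, 6.48, 6.61 and 6.64 (wt), 6.85, 6.86 and 6.87 (A3), 7.16, 7.13, 7.26 and 7.19 (D3) and 6.94, 6.99, 7.28 and 6.94 (D4). Under CPA the arrays read 6.85, 6.56, 6.59 and 6.48 (wt), 6.85, 6.68, 6.82 and 6.69 (A3), 7.13, 7.11, 7.17 and 6.96 (D3) and 6.85, 6.96, 6.9 and 6.79 (D4). Every untreated clone array exceeded every wt array, and D3 was highest. The untreated log2 difference from wt was 0.24 ± 0.09 in A3 (adjusted p = 0.0519), 0.57 ± 0.08 in D3 (adjusted p = 8.6e-06) and 0.42 ± 0.08 in D4 (adjusted p = 3.4e-04). The treated difference was 0.14 ± 0.08 in A3 (adjusted p = 0.267), 0.47 ± 0.08 in D3 (adjusted p = 1.4e-04) and 0.25 ± 0.08 in D4 (adjusted p = 0.0309). The D4 call with CPA was lost without any 1 of wt replicates 2, 3 and 5 and D4 replicates 1, 2 and 4 (0.21 to 0.26, adjusted p from 0.0524 to 0.123).

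COL4A1 was also among the few members that separated the resistant clone D3 from A3. Between these clones 2 collagen genes were called in untreated tumours (all genes, 2.27%) and 3 with CPA (all genes, 4.55%). COL4A1 was higher in D3 by 0.32 ± 0.09 untreated (adjusted p = 0.0453) and by 0.33 ± 0.08 with CPA (adjusted p = 0.0135), and the arrays did not overlap. The untreated call was marginal. It was lost without any 1 of 18 arrays, among them all 7 of the compared groups, with the difference at 0.30 to 0.34 and the adjusted p at 0.0504 to 0.145, highest without A3 replicate 4. The CPA call was lost without D3 replicate 4 (0.31, adjusted p = 0.0504). Its partner COL4A2 was not called between these clones. The group means of COL4A2 were 7.61 (A3) and 7.63 (D3) untreated, and 7.54 and 7.71 with CPA.

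COL4A2 read 7.38, 7.13, 7.16 and 7.23 (wt), 7.59, 7.72 and 7.53 (A3), 7.64, 7.58, 7.73 and 7.56 (D3) and 7.53, 7.58, 7.87 and 7.51 (D4) on the untreated arrays. After CPA they were 7.51, 7.27, 7.27 and 7.3 (wt), 7.73, 7.56, 7.45 and 7.42 (A3), 7.68, 7.71, 7.88 and 7.56 (D3) and 7.5, 7.47, 7.62 and 7.46 (D4). All untreated clone arrays were above all wt arrays, while with CPA wt replicate 1, at 7.51, lay among the clones. Untreated, the 3 clones differed from wt by nearly the same amount, 0.39 ± 0.09 in A3 (adjusted p = 0.00344), 0.4 ± 0.09 in D3 (adjusted p = 0.00125) and 0.4 ± 0.09 in D4 (adjusted p = 0.00116). With CPA the difference was 0.2 ± 0.09 in A3 (adjusted p = 0.123), 0.37 ± 0.09 in D3 (adjusted p = 0.00373) and 0.17 ± 0.09 in D4 (adjusted p = 0.208), of which D3 alone was called.

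COL4A5, whose chain forms the networks that are lost in Alport syndrome, was lower in every clone. Untreated arrays read 9.67, 9.68, 9.44 and 9.45 (wt), 9.05, 8.9 and 9.13 (A3), 8.7, 8.69, 8.77 and 8.61 (D3) and 8.96, 8.95, 8.75 and 8.81 (D4). CPA-treated tumours gave 9.22, 9.57, 9.56 and 9.68 (wt), 8.99, 8.95, 9.14 and 9.37 (A3), 8.79, 8.79, 8.79 and 8.9 (D3) and 9.0, 8.88, 8.98 and 8.73 (D4). The clones stayed below all wt arrays except that wt replicate 1 with CPA, at 9.22, was under 1 array of A3 (9.37). Untreated, the log2 difference from wt was -0.53 ± 0.10 in A3 (adjusted p = 3.6e-04), -0.87 ± 0.10 in D3 (adjusted p = 1.4e-07) and -0.69 ± 0.10 in D4 (adjusted p = 3.4e-06), a 1.82-fold lower level in D3. Treated, it was -0.4 ± 0.10 in A3 (adjusted p = 0.0035), -0.69 ± 0.10 in D3 (adjusted p = 6.1e-06) and -0.61 ± 0.10 in D4 (adjusted p = 2.8e-05).

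Its head-to-head partner COL4A6 ranked the clones in the same order on average, A3 above D4 above D3, without and with CPA. The place of wt differed: highest in COL4A5, it lay below A3 in COL4A6. On untreated arrays it was 6.87, 6.87, 6.83 and 6.82 (wt), 7.05, 7.17 and 7.16 (A3), 6.7, 6.74, 6.61 and 6.63 (D3) and 6.91, 6.8, 6.93 and 6.91 (D4). With CPA the levels were 6.77, 6.79, 6.88 and 6.86 (wt), 7.19, 6.97, 7.08 and 7.29 (A3), 6.77, 6.63, 6.69 and 6.85 (D3) and 6.82, 6.78, 6.87 and 6.66 (D4). A3 stood above all other lines, without and with CPA, and D3 was lowest on average. The log2 difference of A3 from wt was 0.27 ± 0.07 untreated (adjusted p = 0.00842) and 0.31 ± 0.07 with CPA (adjusted p = 0.00195). The difference of D3 from A3 was -0.46 ± 0.07 (adjusted p = 3.8e-04) untreated and -0.4 ± 0.07 (adjusted p = 5.2e-04) with CPA, and that of D4 from A3 with CPA was -0.35 ± 0.07 (adjusted p = 0.00107). Against wt neither D3 nor D4 was called; D3 untreated had a difference of -0.18 ± 0.07 (95% interval -0.32 to -0.04). COL4A3 and COL4A4, of the remaining pair, were among the dimmest 30% of genes and were not called in any comparison.

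Collagen VI consists of an alpha 1 chain, an alpha 2 chain and a longer partner, and is made by many mesenchymal cells. COL6A3 encodes the long chain. Its untreated levels were 7.87, 8.26, 8.09 and 8.45 (wt), 8.49, 8.68 and 8.6 (A3), 8.74, 8.74, 8.72 and 8.83 (D3) and 8.38, 8.66, 8.89 and 8.55 (D4). On the CPA-treated arrays it was 8.41, 8.15, 8.02 and 8.3 (wt), 8.61, 8.36, 8.25 and 8.53 (A3), 8.62, 8.56, 8.84 and 8.61 (D3) and 8.36, 8.41, 8.27 and 8.44 (D4). Untreated A3 and D3 arrays were all above the wt arrays and D4 overlapped through 1 array (8.38). The untreated log2 difference was 0.42 ± 0.12 in A3 (adjusted p = 0.0101), 0.59 ± 0.11 in D3 (adjusted p = 2.1e-04) and 0.45 ± 0.11 in D4 (adjusted p = 0.00301), and the A3 call was lost without wt replicate 1 (0.32, adjusted p = 0.055) or A3 replicate 2 (0.38, adjusted p = 0.0575). After CPA the difference was 0.22 ± 0.11 in A3 (adjusted p = 0.179), 0.44 ± 0.11 in D3 (adjusted p = 0.00527) and 0.15 ± 0.11 in D4 (adjusted p = 0.429), where D3 alone was called.

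COL6A2, which encodes the alpha 2 chain, was at 9.82, 9.51, 9.66 and 9.43 (wt), 9.43, 9.72 and 9.57 (A3), 9.37, 9.19, 9.42 and 9.1 (D3) and 9.35, 9.25, 9.56 and 9.02 (D4) on untreated arrays. The treated arrays read 9.7, 9.45, 9.64 and 9.52 (wt), 9.74, 9.31, 9.5 and 9.29 (A3), 9.39, 9.34, 9.61 and 9.26 (D3) and 9.17, 9.06, 9.33 and 8.95 (D4). Untreated D3 and CPA-treated D4 were below all wt arrays of the same treatment. The untreated log2 difference from wt was -0.03 ± 0.12 in A3 (adjusted p = 0.913), -0.33 ± 0.11 in D3 (adjusted p = 0.042) and -0.31 ± 0.11 in D4 (adjusted p = 0.0544). On CPA-treated arrays it was -0.11 ± 0.11 in A3 (adjusted p = 0.545), -0.18 ± 0.11 in D3 (adjusted p = 0.282) and -0.45 ± 0.11 in D4 (adjusted p = 0.00631). The untreated D3 call was lost without any 1 of wt replicates 1 and 3 and D3 replicates 2 and 5 (-0.31 to -0.26, adjusted p from 0.0983 to 0.16), and with the replicate block it was -0.27 (adjusted p = 0.0669). COL6A1, the neighbour of COL6A2 and its partner in the trimer, was not called; its untreated differences were -0.26 ± 0.12 in A3, -0.23 ± 0.12 in D3 and -0.21 ± 0.12 in D4. COL6A5 and COL6A6 were dim and not called.

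COL12A1, a FACIT chain that binds collagen I fibres and is found in dense connective tissue and in the stroma of carcinomas, showed the largest difference of all collagen genes. Untreated arrays read 6.39, 6.57, 6.37 and 6.87 (wt), 7.91, 7.71 and 7.73 (A3), 7.78, 8.12, 7.89 and 8.06 (D3) and 7.22, 7.48, 7.51 and 7.43 (D4). CPA-treated levels were 6.5, 6.58, 6.31 and 6.57 (wt), 7.63, 7.66, 7.46 and 7.82 (A3), 7.76, 7.69, 7.75 and 7.78 (D3) and 7.14, 7.46, 6.89 and 7.52 (D4). The highest wt array, at 6.87, was below the lowest array of any clone, at 6.89. On average D3 and A3 were highest and D4 lay between them and wt. Untreated, the log2 difference from wt was 1.23 ± 0.13 in A3 (adjusted p = 6.6e-08), 1.41 ± 0.12 in D3 (adjusted p = 1.3e-09) and 0.86 ± 0.12 in D4 (adjusted p = 2.7e-06), or 2.35-fold, 2.66-fold and 1.82-fold. In CPA-treated tumours this was 1.15 ± 0.12 in A3 (adjusted p = 5.7e-08), 1.25 ± 0.12 in D3 (adjusted p = 1.5e-08) and 0.76 ± 0.12 in D4 (adjusted p = 2.2e-05).

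The 2 resistant clones differed in COL12A1 as well. In untreated tumours it was the only collagen gene called between D4 and D3 (1 of 42, all genes 0.323%), lower in D4 with a log2 difference of -0.55 ± 0.12 (adjusted p = 0.0219), and with CPA the difference was -0.49 ± 0.12 (adjusted p = 0.0165). Arrays of D3 and D4 did not overlap in either treatment. Against A3 the difference of D4 with CPA was -0.39 ± 0.12 (adjusted p = 0.0275). The untreated call between D4 and D3 was lost without any 1 of D3 replicates 2 and 5 and D4 replicates 1 and 5 (-0.55 to -0.49, adjusted p from 0.0647 to 0.144). The treated call was lost without D3 replicate 5 (-0.48, adjusted p = 0.0546) or D4 replicate 1 (-0.45, adjusted p = 0.0595), and that against A3 without any 1 of A3 replicates 1, 2 and 4 and D4 replicates 1 and 4 (-0.39 to -0.27, adjusted p from 0.0573 to 0.107).

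COL21A1, a small FACIT chain of vessel walls and other tissues, was dim and lower in the clones. Untreated arrays read 5.94, 5.96, 5.91 and 5.73 (wt), 5.64, 5.59 and 5.32 (A3), 5.64, 5.21, 5.29 and 5.5 (D3) and 5.78, 5.24, 5.27 and 5.31 (D4). After CPA the arrays read 5.88, 5.91, 5.67 and 5.91 (wt), 5.32, 5.56, 5.37 and 5.39 (A3), 5.3, 5.41, 5.51 and 5.68 (D3) and 5.23, 5.49, 5.55 and 5.43 (D4). Except for 1 untreated D4 array (5.78) and 1 CPA-treated D3 array (5.68), the clone arrays were below all wt arrays of the same treatment. The untreated log2 difference was -0.37 ± 0.12 in A3 (adjusted p = 0.0307), -0.47 ± 0.11 in D3 (adjusted p = 0.00288) and -0.48 ± 0.11 in D4 (adjusted p = 0.00216). With the drug it was -0.43 ± 0.11 in A3 (adjusted p = 0.00665), -0.37 ± 0.11 in D3 (adjusted p = 0.0226) and -0.42 ± 0.11 in D4 (adjusted p = 0.00956). The untreated A3 call was lost without any 1 of wt replicates 1 to 3 and A3 replicate 4 (-0.36 to -0.27, adjusted p from 0.0636 to 0.195). With CPA the D3 call was lost without any 1 of wt replicates 2 and 5 and D3 replicates 2 and 3 (-0.35 to -0.31, adjusted p from 0.0538 to 0.0782), and the D4 call without D4 replicate 1 (-0.35, adjusted p = 0.0512). The remaining FACIT chains were not called against wt.

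Outside these classes only marginal calls against wt were made. COL13A1, a transmembrane chain of cell junctions, was higher in untreated A3 than in wt by 0.26 ± 0.09 (adjusted p = 0.0448), lost without any 1 of 10 arrays, among them wt replicates 2 to 4 and A3 replicates 1 and 2 (0.22 to 0.27, adjusted p from 0.0505 to 0.166). COL15A1, a multiplexin of basement membranes, was dim and higher in CPA-treated D3 than in wt by 0.28 ± 0.10 (adjusted p = 0.0494), lost without any 1 of 21 arrays, among them wt replicates 2, 3 and 5 and D3 replicates 2, 4 and 5 (0.20 to 0.31, adjusted p from 0.0503 to 0.21). In all, 24 of the 42 genes were called neither by the F-test nor between any pair of lines. Their differences from wt ran from -0.30 (COL8A1, untreated D4) to 0.28 (COL2A1, CPA-treated D3). The same count was not made over all genes, so it cannot be read as particular to collagen genes.

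Differences between lines were then measured on the CPA-treated tumours, which are other arrays. Between A3 and wt 6 collagen genes were called (all genes, 16.3%), 2 higher in A3 (all genes, 6.74%) and 4 lower (9.6%). Between D3 and wt 10 were called (all genes, 16.4%), 6 higher in D3 (6.28%) and 4 lower (10.1%). Between D4 and wt 9 were called (all genes, 15.1%), 2 higher in D4 (7.54%) and 7 lower (7.59%). Of the genes called in untreated tumours, 6 of 10 in A3 (60.0%), 9 of 11 in D3 (81.8%) and 7 of 9 in D4 (77.8%) were called in the same direction with CPA, and none in the opposite direction. Read from the treated side these were 100%, 90.0% and 77.8% of the calls. Over all genes the same shares were 63.0%, 54.7% and 53.1% of the untreated calls and 71.3%, 60.5% and 70.6% of the treated ones. COL12A1, COL3A1, COL5A2, COL4A5 and COL21A1 were called in all 6 comparisons of a clone with wt. Comparisons within a treatment share the wt arrays. How many of all genes were called in all 6 was not counted, so this cannot be read as particular to collagen genes.

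**Figure D3:**
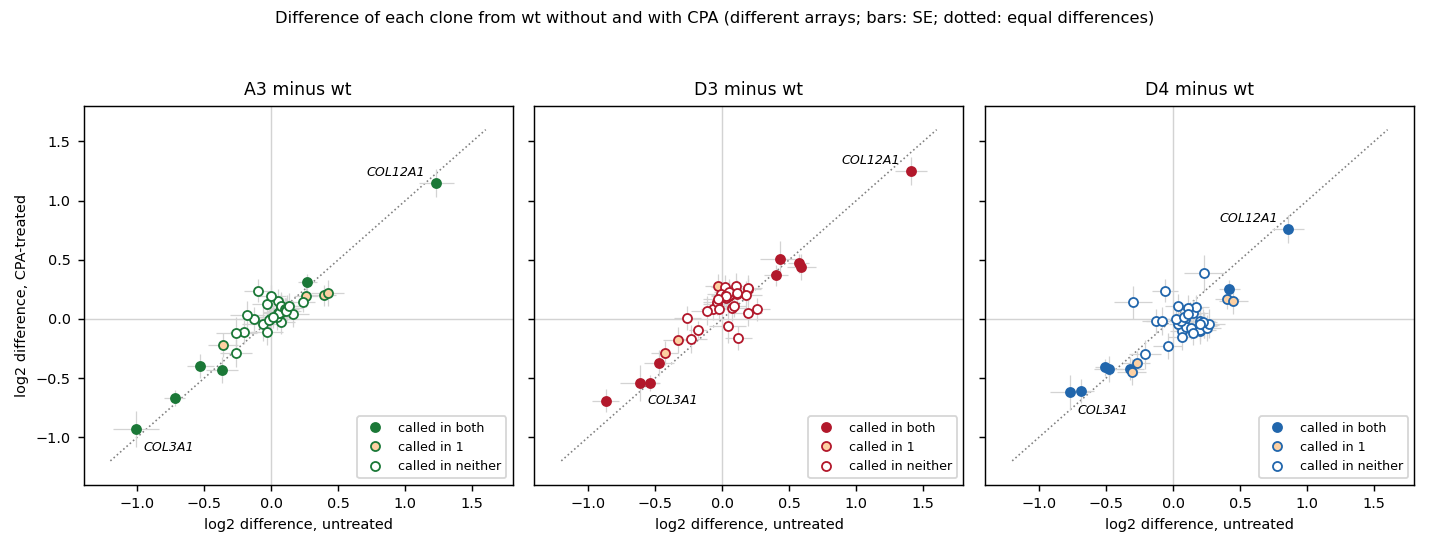
Log2 difference of each clone from wt in untreated (x axis) and in CPA-treated tumours (y axis) for the 42 collagen genes, 1 panel per clone, with bars for the standard error. COL12A1 is at the upper right and COL3A1 at the lower left of each panel, and no gene called in both lies on opposite sides of 0.

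Between D4 and A3 no collagen gene was called by limma in untreated tumours (all genes, 3.77%), with 4 (all genes, 15.1%) at an unadjusted p under 0.05. With CPA 3 were called (all genes, 12.4%): COL12A1 and COL4A6, given above, were lower in D4 and COL5A2 was higher. Between D4 and D3 with CPA, 5 were called (all genes, 8.05%), and each was lower in D4: COL12A1, COL7A1 (the anchoring fibril chain), COL18A1 (a multiplexin whose end fragment is endostatin), COL22A1 (a FACIT of tissue junctions) and COL27A1. COL18A1 read 8.23, 8.23, 8.38 and 8.24 in D3 and 7.89, 7.77, 8.11 and 7.71 in D4, a log2 difference of -0.4 ± 0.11 (adjusted p = 0.0239). COL7A1 read 7.03, 7.18, 7.15 and 7.3 in D3 and 6.75, 6.79, 6.85 and 6.86 in D4, a difference of -0.35 ± 0.11 (adjusted p = 0.0386). In both genes the 4 arrays of D4 lay below the 4 of D3. The differences were -0.32 ± 0.10 in COL22A1 (adjusted p = 0.0404) and -0.37 ± 0.10 in COL27A1 (adjusted p = 0.0259). Leaving out single arrays moved the count of collagen genes between 0 and 8, with 0 without D3 replicate 5 (counts over all genes are not given for these fits). Each of these calls was lost without 2 to 7 single arrays of the compared groups: D3 replicates 4 and 5 and D4 replicates 1, 2 and 5 for COL18A1 (-0.41 to -0.35, adjusted p up to 0.0814) and COL27A1 (-0.38 to -0.32, up to 0.0789), D3 replicates 3 to 5 and D4 replicates 1, 2 and 5 for COL7A1 (-0.37 to -0.31, up to 0.141), and D3 replicates 2, 3 and 5 and every D4 array for COL22A1 (-0.37 to -0.27, up to 0.157).

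The log2 difference between D4 and D3 with CPA was below 0 in 35 of the 42 collagen genes and in 56.8% of all genes, with medians of -0.18 and -0.04. Over all genes 4 arrays deviated most from their group means (untreated D4 replicates 1 and 4, untreated A3 replicate 2 and CPA-treated D3 replicate 5). When these were left out it was below 0 in 33 and 55.7%, with medians of -0.15 and -0.03, and 3 collagen genes were called, beside 766 of all genes. In 19 of 42 collagen genes CPA-treated D4 had the lowest of the 8 group means, as had 22.6% of all genes, and in 16 CPA-treated D3 had the highest, as had 18.9% of all genes. These are descriptions of 2 groups of 4 arrays, and collagen genes share the arrays, so they are not independent of each other. The mean of 8 endothelial markers was also lowest in CPA-treated D4, at 6.35 ± 0.03 (SD, n = 4), beside 6.54 ± 0.09 (SD, n = 4) in CPA-treated D3 and 6.46 ± 0.08 (SD, n = 4) in untreated D4. Untreated A3 stood near it, at 6.40 ± 0.12 (SD, n = 3), so a low mean was not particular to CPA-treated D4. The 8 markers did not move as one: between D4 and D3 with CPA, KDR (-0.73 ± 0.13) and TIE1 (-0.44 ± 0.12) were called lower in D4, PECAM1 (0.38 ± 0.09) higher, and the other five were not called. Of 7 pericyte and smooth muscle markers none was called there, with a median difference of -0.13. The mean of 14 fibroblast markers, most of them dim, went the other way. It was highest in CPA-treated D4, at 5.03 ± 0.05 (SD, n = 4), beside 4.96 ± 0.01 (SD, n = 4) in CPA-treated D3. Untreated D4 had 4.98 ± 0.06 (SD, n = 4) and untreated D3 5.01 ± 0.07 (SD, n = 4). The part of these cells in the result was not tested.

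CPA itself changed no collagen gene past the threshold in any line. The limma test called 0 of 42 in wt (all genes, 0.0462%), 0 in A3 (0.352%), 0 in D3 (0.231%) and 0 in D4 (1.03%). At an unadjusted p under 0.05 there were 1, 0, 3 and 11 collagen genes, beside 3.38%, 6.68%, 12.8% and 21.9% of all genes. The log2 differences ran from -0.20 to 0.11 in wt, -0.16 to 0.20 in A3, -0.22 to 0.24 in D3 and -0.30 to 0.36 in D4. Over all collagen genes and lines the 95% intervals reached as far as -0.54 and 0.65, and most genes had narrower limits than these. With 3 or 4 arrays a group, a gene that was not called may still have changed within its own interval. For COL12A1 the difference in wt was -0.06 ± 0.12, and in A3, D3 and D4 it was -0.14 ± 0.13, -0.22 ± 0.12 and -0.16 ± 0.12. For COL3A1, with the lines in the same order, it was -0.1 ± 0.15, -0.01 ± 0.17, -0.03 ± 0.15 and 0.05 ± 0.15.

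In D4, 35 of the 42 differences were below 0, with a median of -0.17 beside -0.03 over all genes, and 10 of the 11 with an unadjusted p under 0.05 were lower with CPA. Of all genes 57.2% were below 0. Replicates 1 and 4 of untreated D4 belong to the 4 far arrays named above; when these were left out, 31 of the 42 were below 0, with a median of -0.09, beside 50.1% and a median of 0.00 over all genes. The count called in D4 over all genes was 178 with them and 9 without them. With all arrays, the median CPA difference in D4 was -0.21 over the 7 pericyte and smooth muscle markers. It was -0.15 over the 8 endothelial markers, and no marker of these lists was called. The fibroblast marker mean was 4.98 ± 0.06 in untreated and 5.03 ± 0.05 in CPA-treated D4 (SD, n = 4 each). Marker medians without the far arrays are not given, and the part of these cells was not tested. COL5A3 had the smallest adjusted p, 0.134, at -0.25 ± 0.09. COL8A1, a network collagen of vessel walls, was the 1 that was higher, at 0.36 ± 0.14 (adjusted p = 0.148). In D3 11 of 42 were below 0, with a median of 0.08 beside 0.01 over all genes. The difference of the CPA effect between a clone and wt was called for 0 collagen genes in A3, D3 and D4 (all genes, 0% each), and 1, 1 and 4 had an unadjusted p under 0.05, beside 3.2%, 6.61% and 7.33% of all genes.

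**Figure D4:**
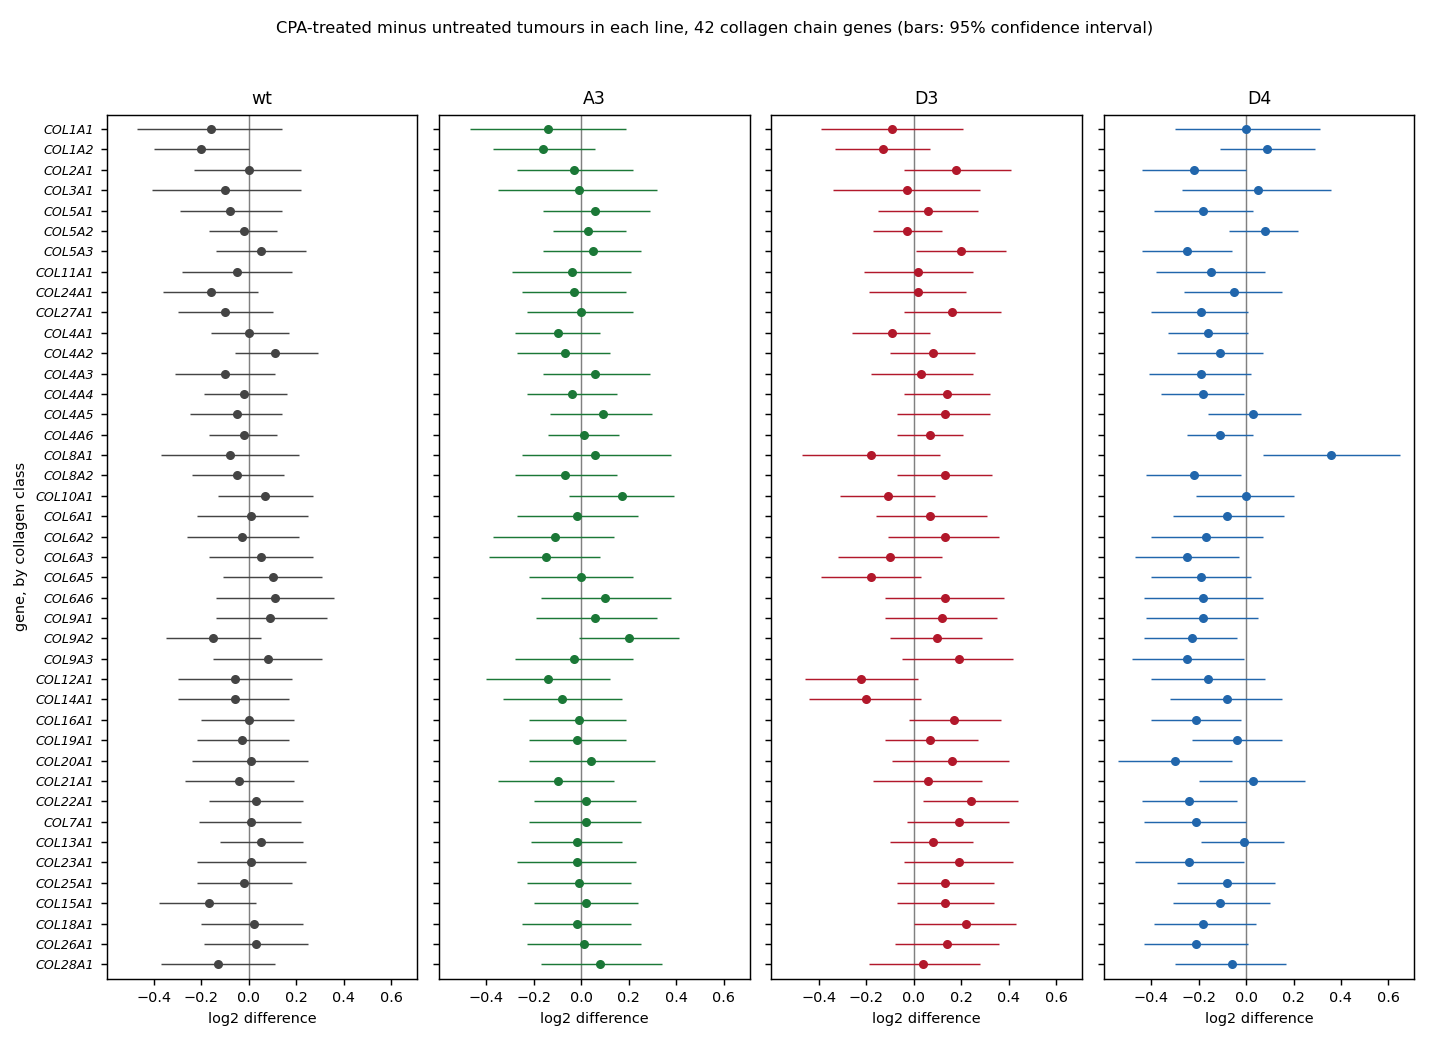
Log2 difference between CPA-treated and untreated tumours (x axis) for each collagen gene (y axis, by class) in the 4 lines, with bars for the 95% confidence interval. No gene passed the threshold after adjustment, and in D4 35 of the 42 points lie to the left of 0.

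Genes that modify, cut, crosslink and bind collagen were measured beside the chains. Of 18 genes for hydroxylation, glycosylation, folding and export, 12 were called by the F-test, beside 35.4% of all genes. Against wt in untreated tumours, where 18.5%, 18.1% and 20.1% of all genes were called in A3, D3 and D4, 3 were lower and 0 higher in A3, 3 lower and 2 higher in D3, and 6 lower and 1 higher in D4. P4HA1, a prolyl hydroxylase subunit that lets the triple helix form, differed from wt by -0.78 ± 0.12 in A3, -0.85 ± 0.11 in D3 and -0.73 ± 0.11 in D4 on the log2 scale, and all 3 were called. MIA3, an export receptor that loads collagen at the endoplasmic reticulum, differed by -0.8 ± 0.11, -0.55 ± 0.10 and -0.8 ± 0.10. PLOD2, a lysyl hydroxylase of the chain ends, differed by -0.26 ± 0.16, -0.67 ± 0.15 and -0.56 ± 0.15, of which the first was not called. P4HA3, a further prolyl hydroxylase subunit, was called in D4, at -0.3 ± 0.08, and at -0.17 ± 0.08 and -0.19 ± 0.08 it was not called in A3 and D3.

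Among 8 genes of procollagen processing 4 were called by the F-test, where 35.4% of all genes were. Untreated, 1 was lower in each clone, and 2 were higher in D3 and in D4. The lower one was TLL1, a protease that cuts the C-terminal propeptides, at -0.9 ± 0.14 in A3, -0.68 ± 0.13 in D3 and -1.0 ± 0.13 in D4. ADAMTS3, which cuts N-terminal propeptides, was higher in D3 and D4 (0.37 ± 0.11 and 0.45 ± 0.11), as was the protease enhancer PCOLCE2 (0.25 ± 0.07 and 0.31 ± 0.07). PCOLCE was called against wt in CPA-treated A3 (0.28 ± 0.08).

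Of the 5 crosslinking oxidases 4 were called by the F-test, against the same 35.4%. LOX, the founding lysyl oxidase, was lower in each untreated clone, with log2 differences from wt of -1.39 ± 0.18 in A3, -1.07 ± 0.16 in D3 and -1.19 ± 0.16 in D4, and LOXL1 was higher by 0.3 ± 0.10, 0.27 ± 0.09 and 0.26 ± 0.09. LOXL3 was higher in D3 and D4 (0.34 ± 0.10 and 0.28 ± 0.10) and LOXL2 in D4 (0.46 ± 0.12). Of the 8 measured receptors 2 were called by that test. ITGA10, an integrin chain that binds collagen, was lower in A3, D3 and D4, at -1.27 ± 0.15, -1.43 ± 0.13 and -1.44 ± 0.13, and MRC2, a receptor that takes up collagen fragments, was called in D4 (-0.28 ± 0.09). GP6 and DDR2 were not called. No gene of these 4 lists was called between CPA-treated and untreated tumours of a line.

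Markers of host cells were set beside the collagen genes because the host stroma makes collagen. Of 14 fibroblast markers, 12 were among the dimmest 30% of genes, the lowest being the small proteoglycans DCN and LUM at mean levels of 3.27 and 3.15. The others, PDGFRA and FBLN5, stood at 8.62 and 6.28. The mean of all 14 markers ran from 4.81 to 5.10 over the arrays, and the group means from 4.93 (untreated A3) to 5.03 (CPA-treated D4). Against wt in untreated tumours 2 of the 14 were called lower in A3 (LUM, -0.49 ± 0.14, and ASPN, -0.48 ± 0.14), 0 in D3 and 1 in D4 (ASPN, -0.43 ± 0.13), and none was called higher. Of all genes 8.36%, 8.4% and 10.9% were called lower in A3, D3 and D4. The median difference over the list was -0.01 in A3, 0.02 in D3 and 0.01 in D4. With CPA, LUM was called lower in A3 (-0.65 ± 0.13; all genes lower, 9.6%) and D3 (-0.64 ± 0.13; 10.1%), and POSTN higher in D4 (0.45 ± 0.13; all genes higher, 7.54%). The part of the host in these differences was not tested directly, since the probes were not checked against mouse sequence.

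With the fibroblast marker mean as a covariate, 65 of the 69 called differences between lines were still called and none changed its sign. COL12A1 then differed from untreated wt by 1.26, 1.40 and 0.87 in A3, D3 and D4, and COL3A1 by -1.04, -0.61 and -0.77. The marker mean ran only from 4.81 to 5.10 over the arrays, and most of its markers were dim. Calls that were kept therefore cannot show how much of a difference comes from the host, which was not tested. Each of the calls lost with the covariate was in untreated tumours. Against wt these were COL21A1 (-0.27, adjusted p = 0.0964) and COL13A1 (0.26, adjusted p = 0.0681) in A3, and COL6A2 in D3 (-0.32, adjusted p = 0.0509). Between D3 and A3 it was COL4A1 (0.34, adjusted p = 0.0599). Within groups, no collagen gene had a slope on the marker mean that passed the threshold in limma (0 of 42, all genes 0%), and 9 had an unadjusted p under 0.05, beside 10.2% of all genes. The median slope was 0.53 log2 units per unit of marker mean over the collagen genes and 0.02 over all genes. COL1A1 had a slope of 1.55 ± 0.69 (adjusted p = 0.463) and COL21A1 of 1.46 ± 0.49 (adjusted p = 0.404). With endothelial markers in place of the fibroblast markers 13 collagen genes and 3328 genes in all were called, and with pericyte and smooth muscle markers 10 and 1422.

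**Figure D5:**
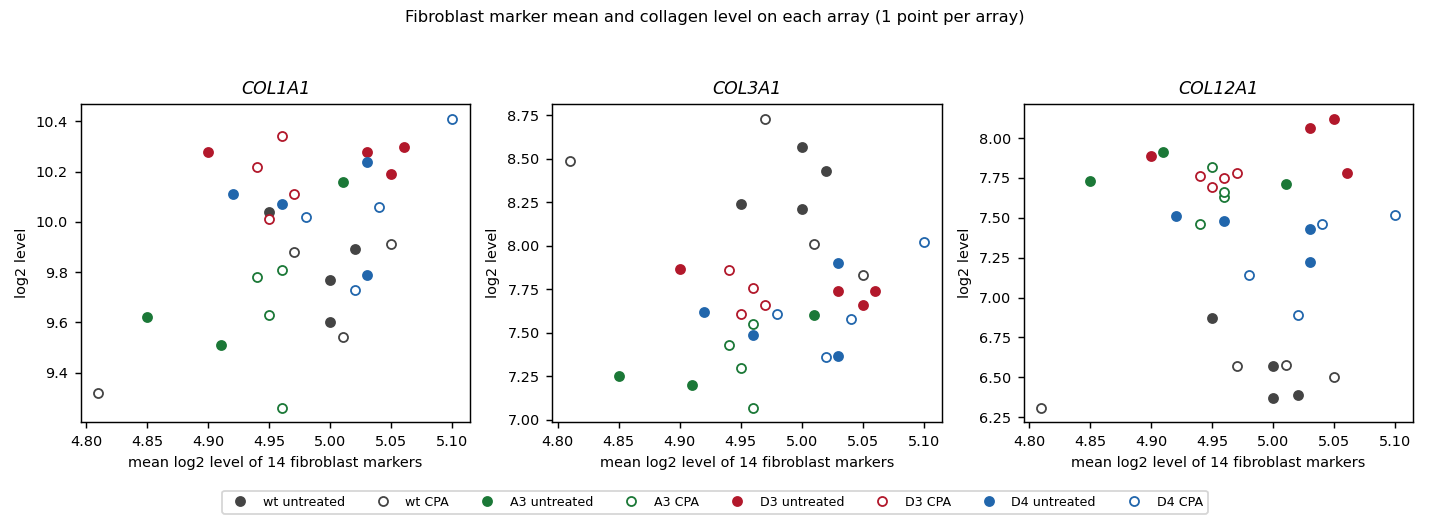
Mean log2 level of the 14 fibroblast markers (x axis) and log2 level of COL1A1, COL3A1 and COL12A1 (y axes) on each of the 31 arrays, coloured by line, filled for untreated and open for CPA-treated tumours. The wt arrays lie below the clones in COL12A1; the marker means run from 4.81 to 5.10, and 12 of the 14 markers are dim.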

How the data were processed

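Tumour total RNA was hybridised to 31 Human Gene 1.0 ST arrays (Affymetrix). RMA was named in the submitters' processing notes as the source of the deposited log2 values (its software and version are not given in the sources used here). Background is corrected by this method, arrays are quantile-normalised and probes summarised, so a change shared by most genes would not be seen. Of 23989 probe sets 17624 carried 1 gene symbol in the platform annotation, 411 several and 5954 none; those with 1 gave 17314 genes, the brightest probe set on average standing for a gene with several. Neighbouring genes were read from a RefSeq table for GRCh38.p14. The listed chains COL11A2 and COL17A1 were not matched to a probe set of 1 symbol and were not analysed here.

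The lmFit and eBayes functions of limma 3.58.1 (R 4.3.3) fitted 8 group means at once, leaving 23 residual degrees of freedom. Benjamini-Hochberg adjustment ran over the whole table, errors after ± are standard errors of the fit unless given as SD, and intervals are 95%. The labels do not state outright that each array is another animal, so the p-values reflect how far these samples scatter, which may in part be technical scatter. Precision is limited by the number of arrays. The members, the gene lists and the tests were chosen with earlier results of these data known. Array values are given for the 12 members with the smallest F-test p, and of each pathway list the 4 genes with the smallest F-test p are named; members that lie outside this rule were named after their values were seen. The labels give replicate numbers and do not state that they pair samples. The numbers were examined for whether every pair of same-numbered arrays deviated together (correlation over 0.1 with 3 pairs). This held for untreated D3 against wt (0.155 to 0.408) and D4 against D3 (0.214 to 0.425), and in no other comparison. The correlation ran from -0.661 to 0.043 for untreated A3 against wt and from -0.632 to -0.137 for untreated D4 against A3. A pairing was thus not established, and the main fit had no block. Alternatives were the replicate block, only the compared groups, median centring, no dim genes, array weights, the fibroblast marker mean as a covariate, each array left out in turn and, added after the data were seen, leaving out the 4 arrays farthest from their group means. Tested on simulated data for untreated A3 against wt over 17314 genes, the fit recovered 99% of the changes of 1 log2 unit and 64% of those of 0.5, with 3 false calls. The simulated noise was normal and independent between genes. In the data the genes of an array can deviate together, so the 3 false calls are no error rate for these data.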

Additional observations from a re-analysis of the deposited data

Results flagged for a closer look

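On the 12 collagen genes given array by array, 84 groups of 4 arrays were examined for a single array that stands far from the others (by Dixon's ratio of the gap to the range), which chance flags in about 1 in 20 groups (5%), or 4.2 groups here. There were 7. COL4A5 in CPA-treated D3 was 8.9 in replicate 5, where the other three arrays read 8.79. COL4A1 in untreated D4 was 7.28 in replicate 4, with the nearest array at 6.99. COL4A6 in untreated D4 was 6.8 in replicate 2, with the nearest at 6.91. COL6A3 in untreated D3 was 8.83 in replicate 5 beside 8.74, COL4A2 in CPA-treated wt was 7.51 in replicate 1 beside 7.3, and COL21A1 was 5.67 in CPA-treated wt replicate 3 beside 5.88 and 5.78 in untreated D4 replicate 1 beside 5.31. Replicates 1 and 4 of untreated D4 and replicate 5 of CPA-treated D3 were also among the 4 arrays farthest from their group means over all genes. No difference of the CPA effect between a clone and wt was called in a collagen gene.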

How the results depend on the processing

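Of the 69 called differences between lines, none changed its sign under any alternative. They stayed called in 68 under median centring, 68 under array weights, 65 with the replicate block, 65 with the fibroblast covariate, 63 without the 4 far arrays and 55 with only the compared groups in the fit; of the 62 that remained measured without the dimmest 30% of genes, 62 stayed called. The replicate block removed COL1A1 (0.39, adjusted p = 0.0752) and COL6A2 (-0.27, 0.0669) in untreated D3 against wt, COL5A1 in untreated D4 against wt (-0.27, 0.058) and COL1A1 in treated D3 against A3 (0.51, 0.0536), changed no other of the 69 calls, and moved no count of collagen genes by over 1.5 times. Counts follow with those over all genes in brackets. With only the groups compared, there were 5 (1882 in place of 3200) for untreated A3 against wt, 1 (105, from 393) for D3 against A3, 0 (22, from 56) for D4 against D3, and 10 (2634, from 1394) for treated D4 against D3. Array weights gave 4 (1207) for untreated D3 against A3, 3 (1644, from 653) for D4 against A3, 9 (4632, from 2143) and 19 (4723) for treated D4 against A3 and D3, and 20 (8882, from 6130) by the F-test. Without dim genes there were 1 (722) for untreated D4 against A3, and 7 (2320) and 8 (1691) for treated D4 against A3 and D3. The covariate gave 1 (286) for untreated D3 against A3 and 12 (2366) for treated D4 against D3. Without the far arrays there were 0 (34) for untreated D4 against D3, and 8 (3299) and 3 (766) for treated D4 against A3 and D3. The cause of these shifts was not tested. For the marker slope, endothelial markers gave 13 (3328) and pericyte markers 10 (1422). The ranges that follow count collagen genes alone. Counts over all genes are not given for them, so they cannot be read as particular to collagen genes. Leaving out single arrays gave 8 to 11, 9 to 12 and 8 to 11 for untreated A3, D3 and D4 against wt, 1 to 2 for D3 against A3 and 0 to 1 for D4 against D3; treated, 6 to 7, 7 to 12 and 7 to 11 against wt, 1 to 4 for D3 against A3, 1 to 6 for D4 against A3 and 0 to 8 for D4 against D3. No second probe set of a member existed to try. Signal near background limits the 15 dim members.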
